A study of Mus musculus with 8 samples.

Results

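Laminin chains and numbered integrin chains were examined in mouse thyroid follicular cell organoids (TFCOs) and in whole tissues. The members were all genes listed under a symbol made of LAMA, LAMB, LAMC, ITGA or ITGB and a number, which gave 30 of the 16119 genes in the table. They comprised 11 laminin genes and 19 integrin genes (11 alpha and 8 beta chains), and all 30 passed the filter on low values that left 14703 genes for testing. RNA was sequenced from 8 libraries, 2 in each of 4 groups, all from wild type C57BL/6 mice (female, per the study's methods). TFCO lines mThy14 and mThy16, each grown from 1 animal, were sequenced at an early and at a late passage. They were cultured in a basement membrane extract (BME) gel with a medium that held R-spondin 3, the TGFβ receptor inhibitor A83-01, forskolin, EGF and FGF10. The other groups were 2 whole thyroid tissues and 2 whole lung tissues, which were not cultured, and no sample received a further treatment. The age of the mice is not given in the sources used here, and nothing there says whether tissues 1 and 2 of a kind came from separate animals, so p-values measure only the spread between these samples.

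Laminins are secreted as trimers of an alpha, a beta and a gamma chain and polymerise into the sheet under every epithelium, the basement membrane. Integrins are receptors made of an alpha and a beta chain that span the cell membrane and tie the cytoskeleton to the matrix, and the pair of chains sets which matrix protein is bound. In the thyroid each follicle of epithelial cells rests on such a sheet, and BME gels hold mostly the laminin built from the Lama1, Lamb1 and Lamc1 products.

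The depth was 9755081 to 16904865 reads on genes per library, recovered from normalized counts, which are reads divided by a size factor per library. The libraries fell into 2 sets that did not follow the groups. A total of 44 genes were at 0 in thyroid tissue 2 and both lungs but at 50 or more in all TFCOs and thyroid tissue 1, and 16 genes showed the reverse. A comparison of TFCOs inside 1 set is thus possible only against the first thyroid tissue, and in comparisons of TFCOs with lung the tissue and the set cannot be told apart. The cell types named by the labels were present: the summed level of 7 thyroid follicular markers was 20831 to 170539 normalized counts in TFCOs, 1555300 and 2222948 in thyroid and 2938 and 1999.97 in lung, where the transcription factor Nkx2-1 carries it. Tg made up most of the sum in thyroid, at 1526002 and 2175016, and was at 9532 to 126441 in TFCOs. In every TFCO library 2 of the 7 markers (Tg and Slc5a5) were below both thyroid tissues and 1, Tshr, was above. The others overlapped thyroid. The 4 lung alveolar markers summed to 426914 and 273383 normalized counts in lung, 5044 to 41894 in TFCOs and 20299 and 15048 in thyroid. Ager carried the sum in thyroid, at 20265 and 15011, and Ager and Sftpb carried it in TFCOs, so these 2 markers were not particular to lung here.

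Promoters are shown for 3 genes with large shares of their families in TFCOs (Lama5, Itga3 and Itgb1) and, as examples, for 2 of the genes called lower than in thyroid (Lama2 and Itga4). RefSeq start sites (build GRCm38.p6) were matched for 19 of the 30 members, with 22 entries. The 150 bases before each start were read on the strand of the gene, and bases that GENCODE M21 places in an exon were left out. Capitals mark the GC box GGGCGG on either strand.

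Itga3 (chr11:95076802-95076864, minus strand, outside annotated genes): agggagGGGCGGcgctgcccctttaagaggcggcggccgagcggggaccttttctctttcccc
Lama5 (chr2:180225860-180226009, minus strand, outside annotated genes): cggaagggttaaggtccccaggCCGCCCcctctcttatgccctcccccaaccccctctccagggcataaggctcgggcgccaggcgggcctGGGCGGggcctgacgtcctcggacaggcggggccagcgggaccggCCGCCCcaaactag
Itgb1 (chr8:128685504-128685653, plus strand, outside annotated genes): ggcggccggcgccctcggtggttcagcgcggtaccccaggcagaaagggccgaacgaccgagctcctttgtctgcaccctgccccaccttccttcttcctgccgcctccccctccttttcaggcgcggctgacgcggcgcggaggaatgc
Itga4 (chr2:79255276-79255425, plus strand, outside annotated genes): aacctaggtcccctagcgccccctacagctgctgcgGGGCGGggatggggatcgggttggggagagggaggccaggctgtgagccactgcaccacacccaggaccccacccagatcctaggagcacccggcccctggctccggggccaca
Lama2 (chr10:27616943-27617092, minus strand, in an intron of Lama2): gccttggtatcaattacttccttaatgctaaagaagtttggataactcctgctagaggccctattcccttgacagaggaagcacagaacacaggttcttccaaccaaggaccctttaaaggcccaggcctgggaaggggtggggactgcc

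Lama5 held 3 GC boxes in its 150 bases, Itga4 held 1, and Itgb1 and Lama2 held 0. Itga3 held 1 in the 63 bases printed and 2 in the whole window of the entry shown. A further Itga3 entry, not shown (chr11:95069199-95069348, within Itga3), held 0. Over the 22 member entries, 6 (27.3%) held a GC box, against 28.6% of all 32851 entries. The TATA box TATAAA was in 0 of the member entries and in 7.57% of all entries. Of 2 further motifs searched on both strands, the E-box CAGCTG was in 4 of the 22 member entries and in 2756 of all 32851 entries (8.39%). The AP-1 site TGACTCA was in 0 of the 22 and in 933 of all entries (2.84%).

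**Figure D1:**
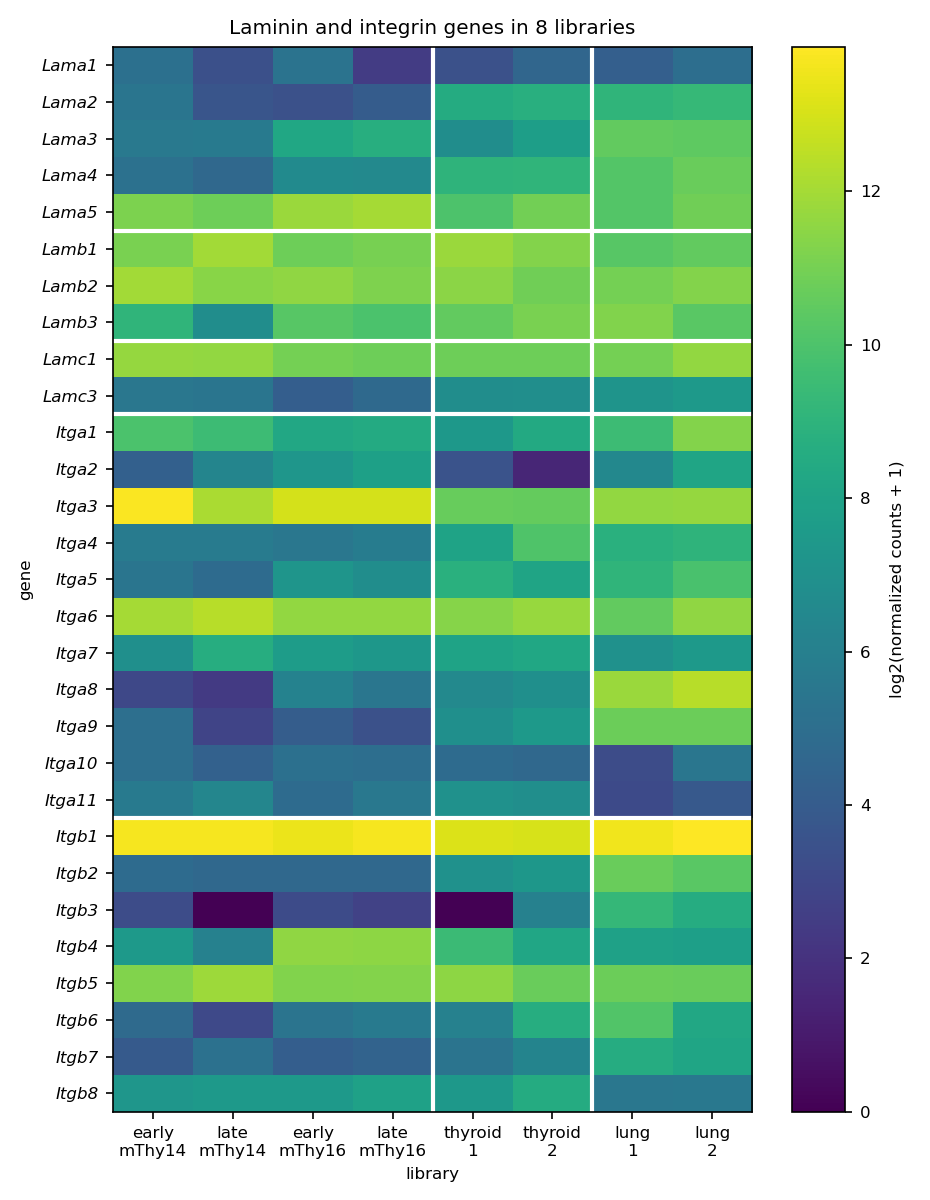
Heat map of log2(normalized counts + 1) for the genes described (rows, in blocks by chain family) in the 8 libraries (columns, TFCOs by line, then thyroid and lung). Itgb1 is bright in all 8 columns, Itga3 is brightest in the TFCO columns, and Lama2, Lama4, Itga4, Itga9 and Itgb2 are darker in the 4 TFCO columns than in the tissues.

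Within their families, Lama5, Itga3, Itga6 and Itgb1 took the largest shares in TFCOs. Between TFCOs and thyroid tissue, limma called 1 member higher in TFCOs, Itga3, and 5 lower, Itga4, Itga9, Itgb2, Lama2 and Lama4 (adjusted p under 0.05, passages of a line averaged, 2 lines against 2 tissues). The 2 lung tissues were in the same fit, so the standard errors and p-values also rest on the spread between the lungs. In bulk RNA, fewer cells of a type and less RNA per cell cannot be told apart. Of all 14703 genes tested, 0.599% were called higher and 3.05% lower. In 3 of the 30 members every TFCO library lay above both thyroid tissues and in 12 every one lay below, against 17.2% and 17.3% of all genes. The median log2 fold change was -0.38 over the 30 members and 0.05 over all genes. In GRCm38 the lower genes lie at chr10:26980036-27619758 (Lama2, minus strand), chr10:38965515-39110188 (Lama4, plus), chr2:79255426-79333123 (Itga4, plus), chr9:118606690-118901003 (Itga9, plus) and chr10:77530252-77565708 (Itgb2, plus). Of the 6 calls, 2 (Itga3 and Lama2) remained with the library set as a term in the fit, which rests on thyroid tissue 1, where 178 genes in all were called. Without thyroid tissue 2, without lung tissue 1 or without lung tissue 2, 1 member was called each time, whereas without thyroid tissue 1 the count was 9, and without late mThy14 TFCOs it was 3.

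Against lung tissue, 1 member was higher in TFCOs (Itga3) and 12 were lower: Itga4, Itga5, Itga8, Itga9, Itgb2, Itgb3, Itgb6, Itgb7, Lama2, Lama3, Lama4 and Lamc3. Of all genes, 9.83% were called higher and 13.5% lower. Every TFCO library lay above both lungs in 6 members and below in 13, against 34.4% and 33.3% of all genes. The median log2 fold change was -0.73 over the members and 0.05 over all genes. With 1 lung library left out the count of 13 fell to 5 (without lung tissue 1) or 3 (without lung tissue 2), and with the library set as a term it was 2 (Itga9 and Itgb2). That term also moved the log2 fold changes of Lama3 from -3.44 to -2.46, of Itga5 from -3.41 to -4.07, of Itga9 from -6.90 to -6.28 and of Itgb7 from -3.97 to -3.08, and those of Itga4, Itgb3 and Itgb6 as given with these genes below. The term is estimated only from the difference between the 2 thyroid tissues, so these values do not separate the set from lung tissue. The comparisons with thyroid and with lung share the TFCO libraries, so their values are given side by side below.

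**Figure D2:**
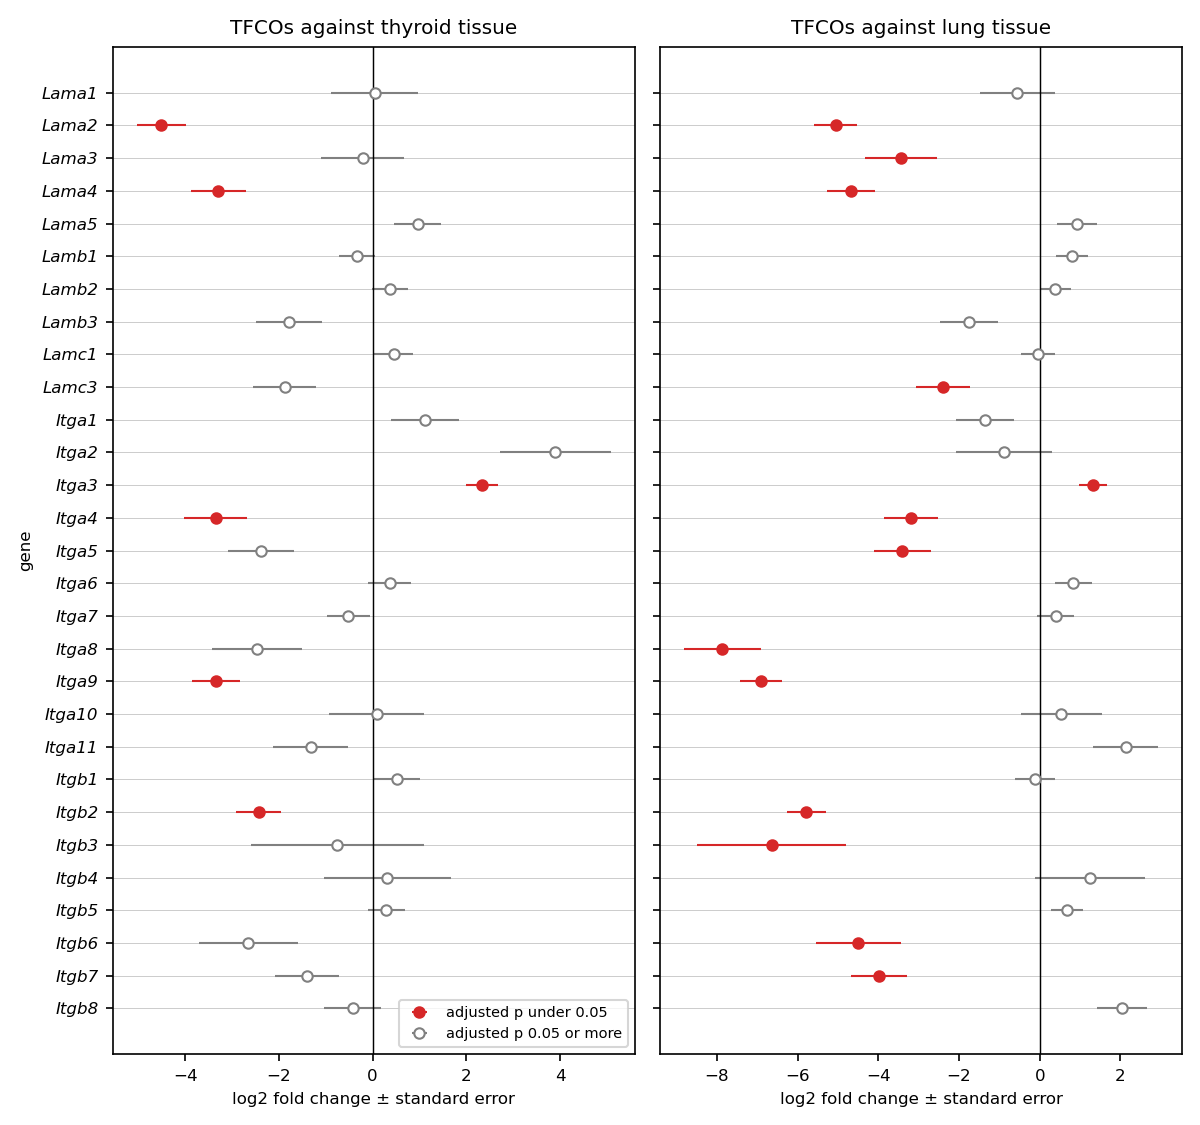
Log2 fold change of each gene described (rows) for TFCOs against thyroid tissue (left) and against lung tissue (right), with the standard error of the limma fit as bars. Filled points are genes with an adjusted p under 0.05; on the right-hand side of the line at 0 the only filled point in either panel is Itga3.

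Among the laminin alpha chains, Lama5, the chain of most adult epithelial basement membranes, was the main one in TFCOs. It was at 2301 and 1832 normalized counts in early and late mThy14 TFCOs, 3516 and 4132 in early and late mThy16 TFCOs, 1046 and 1967 in thyroid and 1145 and 1868 in lung, tissue 1 before tissue 2 here and below. The mThy14 libraries overlapped the tissues, and the log2 fold changes of 0.96 against thyroid (limma adjusted p = 0.342) and 0.94 against lung (limma adjusted p = 0.182) did not pass. Per kilobase of transcript, Lama5 held 85.9 to 93.6% of the summed alpha chain level in the 4 TFCO libraries, 40.5 and 52.3% in thyroid and 20.5 and 25.6% in lung. The share was thus higher in every TFCO library than in every tissue. A share also moves with the other alpha chains. The labels describe a library protocol that reads transcript ends and the study's methods a kit that covers whole transcripts, and without division by length the TFCO mean of this share was 91.4% in place of 89.4%.

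Lama2, the alpha chain of muscle and peripheral nerve basement membranes, was at 40.8 and 11.4 normalized counts in early and late mThy14 TFCOs and at 9.90 and 15.7 in mThy16, against 371 and 425 in thyroid and 535 and 632 in lung. All 4 TFCO libraries lay far below all tissues. Against thyroid its log2 fold change was -4.51 (SE 0.53, limma adjusted p = 0.00849), which is 22.7-fold lower, and -5.06 against lung (SE 0.53, limma adjusted p = 0.00211). Against thyroid tissue 1 alone the log2 difference was -4.41, and the call against thyroid held in all 21 alternatives. Lama4, found mainly in vessel walls and other mesenchyme, was at 35.1 and 25.0 normalized counts in early and late mThy14 TFCOs, 98.0 and 92.8 in mThy16, 514 and 546 in thyroid and 1143 and 1675 in lung. Its log2 fold change was -3.29 against thyroid (SE 0.59, limma adjusted p = 0.0331) and -4.67 against lung (SE 0.59, limma adjusted p = 0.0042). Within the set of thyroid tissue 1 the log2 difference was -3.24. The call against thyroid held in 14 of 21 alternatives, with adjusted p by limma up to 0.126.

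Lama3, the alpha chain of the epithelial anchoring laminin that also holds the Lamb3 product, was at 47.8 and 48.9 normalized counts in early and late mThy14 TFCOs but at 311 and 423 in mThy16. Thyroid tissues had 110.0 and 217, between the lines, and lungs had 1514 and 1387, above all TFCOs. Its log2 fold change was -0.21 against thyroid (limma adjusted p = 0.906) and -3.44 against lung (SE 0.89, limma adjusted p = 0.0373). Lama1, the alpha chain of early embryonic basement membranes and of the BME gel, was low in every library, with 4 to 46 reads each. It was at 33.7 and 9.37 normalized counts in early and late mThy14 TFCOs, 37.6 and 4.47 in mThy16, 9.8 and 23.0 in thyroid and 17.6 and 31.0 in lung. No comparison of Lama1 passed the test.

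Of Lamb1, Lamb2, Lamb3, Lamc1 and Lamc3, 1 passed a test of TFCOs against a tissue, Lamc3 against lung. Lamb1 was at 1799 to 3932 normalized counts in TFCOs, 3586 and 2486 in thyroid and 1253 and 1491 in lung, and Lamb2 at 2352 to 4011 in TFCOs, 2827 and 1879 in thyroid and 2051 and 2522 in lung. These are the beta chains of most laminins, and neither passed the test against either tissue. Per kilobase, Lamb2 was the highest beta chain in 3 TFCO libraries and Lamb1 in late mThy14 TFCOs. Lamb3 was at 539.7 and 112 normalized counts in early and late mThy14 TFCOs, 1246 and 988 in mThy16, 1516 and 2143 in thyroid and 2468 and 1267 in lung. All TFCO libraries lay below all tissues, but the log2 fold changes of -1.78 (limma adjusted p = 0.244) and -1.75 (limma adjusted p = 0.101) did not pass.

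Lamc1, the gamma chain of most laminins, was at 1789.7 to 3345 normalized counts in TFCOs, 1831 and 1815 in thyroid and 2056 and 3217 in lung. TFCOs overlapped both tissues, and neither comparison passed the test. Lamc3 was low, at 45.0 and 40.6 normalized counts in early and late mThy14 TFCOs, 16.8 and 25.7 in mThy16, 111 and 113 in thyroid and 144 and 179 in lung. All TFCO libraries lay below all tissues, and the log2 fold change passed against lung (-2.39, SE 0.67, limma adjusted p = 0.0442) but not against thyroid (-1.87, limma adjusted p = 0.202).

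**Figure D3:**
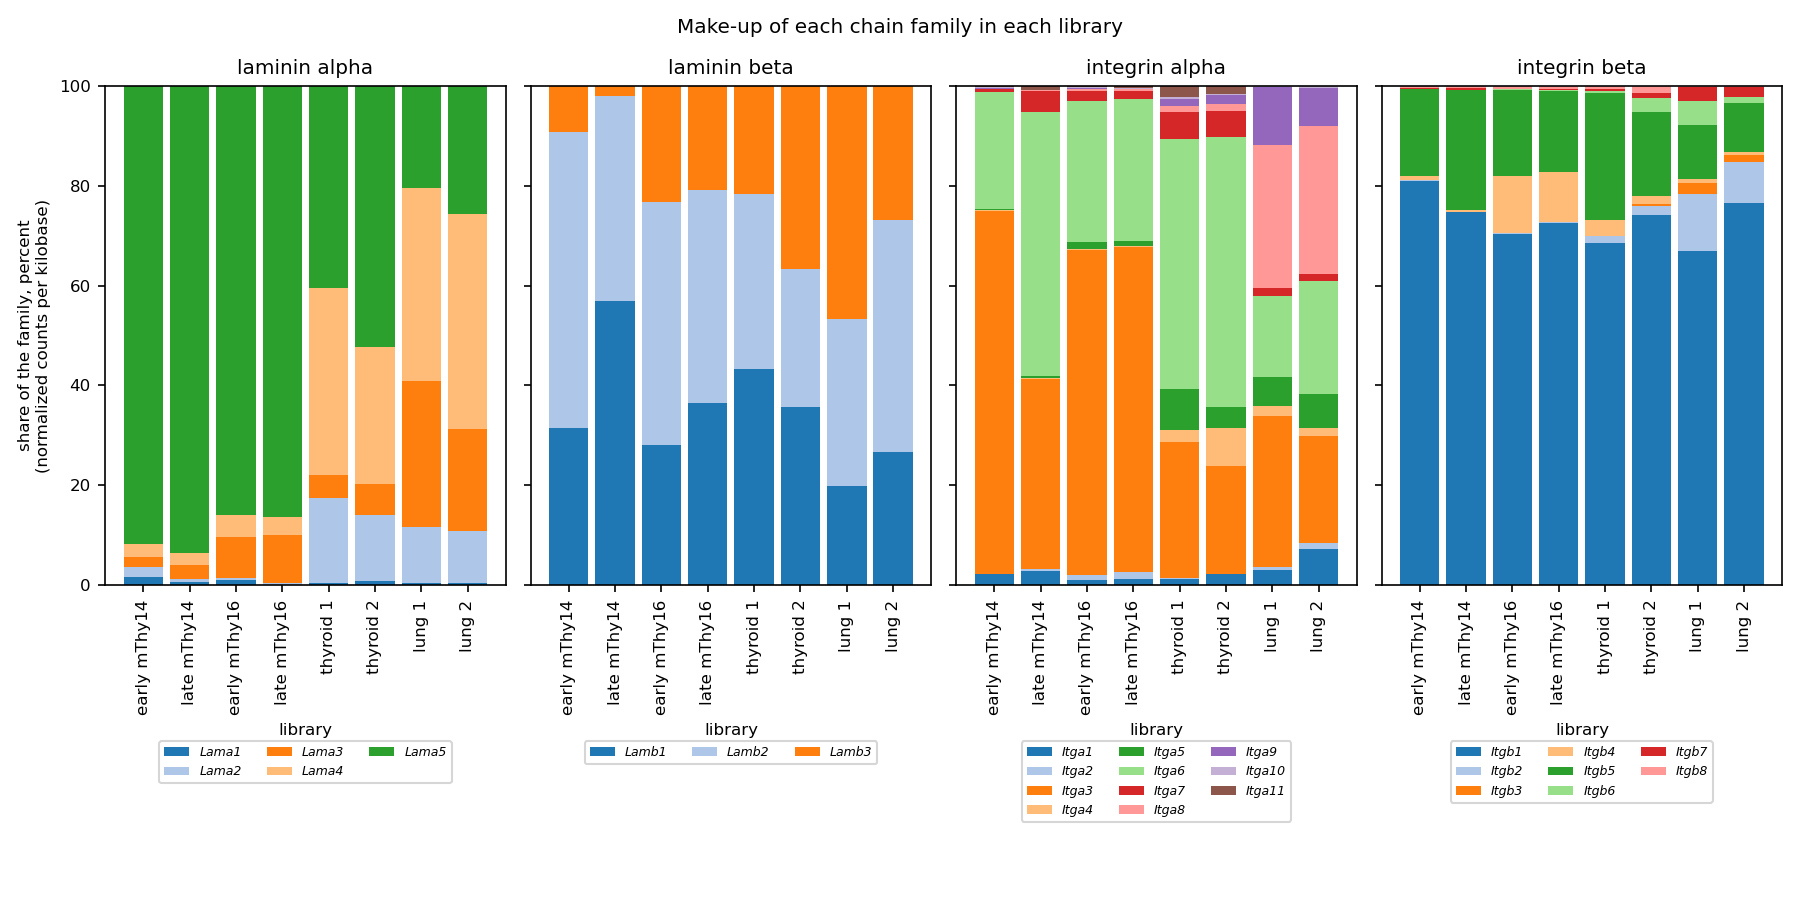
Share of each chain in its family, in percent of the summed normalized counts per kilobase of the longest annotated transcript, for 4 families (panels) and 8 libraries (bars); only numbered chains are included. Lama5 makes up at least 85.9% of the laminin alpha bar in each TFCO library and at most 52.3% in a tissue, and Itga3 and Itga6 fill most of the integrin alpha bar in TFCOs.

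Of the integrin alpha chains, the laminin receptors Itga3 and Itga6 led in TFCOs. Itga3, whose product pairs with that of Itgb1 and binds laminins with Lama3 or Lama5 chains, lies on chromosome 11 from 95044474 to 95076801 (minus strand, GRCm38). It was at 14374 and 4404 normalized counts in early and late mThy14 TFCOs, 8178 and 8084 in mThy16, 1621 and 1549 in thyroid and 3147 and 3309.7 in lung. Every TFCO library lay above every tissue. The log2 fold change was 2.34 against thyroid (SE 0.34, limma adjusted p = 0.0157), which is 5.07-fold higher, and 1.32 against lung (SE 0.34, limma adjusted p = 0.0371). Against thyroid tissue 1 alone the log2 difference was 2.31. The call against thyroid held in 16 of 21 alternatives and that against lung in 13 of 21.

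Itga6, which joins Itgb1 or Itgb4 in laminin receptors, was at 3138 to 5432 normalized counts in TFCOs, 2626 and 3416 in thyroid and 1509 and 3089 in lung. TFCOs and thyroid overlapped, and neither comparison passed the test. Per kilobase, Itga3 took 72.8 and 38.1% of the alpha chain level in early and late mThy14 TFCOs and 65.2 and 65.2% in mThy16, and Itga6 took 23.3 to 53.0%. In thyroid the order was the other way round, with 27.4 and 21.7% for Itga3 and 50.02 and 54.0% for Itga6. Late mThy14 TFCOs shared the order of the thyroid tissues. Itga7, a laminin receptor chain best known from muscle, was at 121 to 406 normalized counts in TFCOs, 267 and 309.8 in thyroid and 132 and 175 in lung, and passed no test.

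Itga1, Itga2, Itga10 and Itga11 are the collagen receptor chains. Itga2 was at 18.3 and 78.1 normalized counts in early and late mThy14 TFCOs, 156 and 235 in mThy16, 10.9 and 1.84 in thyroid and 88.8 and 289 in lung. All TFCO libraries lay above both thyroid tissues, which had 10 and 2 reads, but the log2 fold change of 3.90 had an SE of 1.19 and a limma adjusted p = 0.143, and was 2.87 against thyroid tissue 1 and 4.93 against thyroid tissue 2. Itga1 was at 314 to 975 in TFCOs, 169 and 347 in thyroid and 735 and 2498 in lung. Itga10 was low throughout, at 18.7 to 33.7 in TFCOs, 28.3 and 24.9 in thyroid and 8.38 and 42.5 in lung. Itga11, a chain of fibroblasts, was at 27.7 to 83.3 in TFCOs, 129.5 and 113 in thyroid and 7.54 and 13.5 in lung. None of these 4 chains passed a test of TFCOs against either tissue.

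Itga5, the chain of the main fibronectin receptor, was at 40.8 and 28.1 normalized counts in early and late mThy14 TFCOs, 151 and 113 in mThy16, 441 and 278 in thyroid and 544 and 948 in lung. All TFCO libraries were below all tissues, with a log2 fold change of -2.38 against thyroid (limma adjusted p = 0.134) and -3.41 against lung (SE 0.70, limma adjusted p = 0.02). Itga8, which pairs with Itgb1 in mesenchymal cells and binds nephronectin, was at 7.03 and 4.16 in early and late mThy14 TFCOs, 71.3 and 42.5 in mThy16, 90.4 and 119 in thyroid and 3578 and 5465 in lung. The mThy14 values rest on 5 and 4 reads. The log2 fold change was -7.86 against lung (SE 0.96, limma adjusted p = 0.00373) and -2.46 against thyroid (limma adjusted p = 0.233).

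Itga4 and Itga9 form receptors for fibronectin, VCAM1 and tenascin on leukocytes, muscle and endothelium. Itga4 was at 54.8 and 54.1 normalized counts in early and late mThy14 TFCOs, 43.6 and 55.9 in mThy16, 268 and 1077 in thyroid and 449.8 and 512 in lung. The 4 TFCO values lay close together and below all tissues, while the thyroid tissues were far apart. Itga4 had a log2 fold change of -3.35 against thyroid (SE 0.68, limma adjusted p = 0.0468) and -3.19 against lung (SE 0.68, limma adjusted p = 0.0218), and the difference was -2.35 against thyroid tissue 1 alone. With the library set as a term the log2 fold change against lung was -1.18 (limma adjusted p = 0.364), a shift that comes only from the difference between the thyroid tissues. The call against thyroid held in 9 of 21 alternatives.

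Itga9 was at 32.3 and 6.25 normalized counts in early and late mThy14 TFCOs, 15.8 and 10.1 in mThy16, 118 and 182 in thyroid and 1765 and 1711 in lung. The 3 kinds of sample did not overlap, with lung highest and TFCOs lowest. The log2 fold change was -3.34 against thyroid (SE 0.52, limma adjusted p = 0.0192), which is 10.1-fold lower, and -6.90 against lung (SE 0.52, limma adjusted p = 0.000757). Against thyroid tissue 1 alone it was -3.03. The call against thyroid held in 14 of 21 alternatives and that against lung in all 21, and the TFCO values rest on 6 to 23 reads.

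Among the beta chains, Itgb1, the partner of most alpha chains, was the highest in all 8 libraries per kilobase. It was at 11471 to 13199 normalized counts in TFCOs, 9173 and 8473 in thyroid and 12493 and 15107 in lung, and held 70.3 to 81.0% of the beta chain level per kilobase in TFCOs. All TFCO libraries lay above both thyroid tissues, but the log2 fold change of 0.52 did not pass (limma adjusted p = 0.552). Itgb5, an Itgav partner that binds vitronectin, was next per kilobase in every TFCO library (without division by length Itgb4 was next in mThy16), at 2409 to 3673 normalized counts, with 2933 and 1668 in thyroid and 1735 and 1649 in lung.

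Itgb4, which with Itga6 anchors epithelia in hemidesmosomes, was at 171 and 67.7 normalized counts in early and late mThy14 TFCOs and at 3048 and 2904 in mThy16. Thyroid had 703 and 296, and lung 249.6 and 228. The tissues lay between the lines, and the log2 fold changes of 0.32 against thyroid (SE 1.36, limma adjusted p = 0.91) and 1.25 against lung (limma adjusted p = 0.497) were smaller than their standard errors of 1.36. The mean of the TFCOs therefore describes neither line for this gene.

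Itgb2, the beta chain of leukocyte integrins, was at 24.6 to 28.1 normalized counts in the 4 TFCO libraries, 127 and 159.5 in thyroid and 1679 and 1274 in lung. TFCO values lay within a narrow range below all tissues. The log2 fold change was -2.43 against thyroid (SE 0.48, limma adjusted p = 0.0441), with -2.27 against thyroid tissue 1 alone, and -5.78 against lung (SE 0.48, limma adjusted p = 0.00107). The call against thyroid held in 11 of 21 alternatives. Itgb7, another leukocyte beta chain, was at 14.1 and 35.4 in early and late mThy14 TFCOs, 16.8 and 20.1 in mThy16, 40.3 and 75.6 in thyroid and 390.3 and 286 in lung. It passed against lung, at a log2 fold change of -3.97 (SE 0.69, limma adjusted p = 0.0121), but not against thyroid (-1.40, limma adjusted p = 0.326).

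Itgb3, Itgb6 and Itgb8 pair with Itgav. Itgb3, a chain of platelets and endothelium, was at 8.43 and 0 normalized counts in early and late mThy14 TFCOs, 7.92 and 5.59 in mThy16, 0 in the first and 66.4 in the second thyroid tissue, and 608 and 385 in lung. Against lung the log2 fold change was -6.64 (SE 1.84, limma adjusted p = 0.0432), and with the library set as a term it was -0.57 (limma adjusted p = 0.863). That shift is the log2 difference of 6.07 between thyroid tissue 2 and thyroid tissue 1, not a value from lung. Against thyroid the direction turned with the tissue, from 2.28 against thyroid tissue 1 to -3.80 against thyroid tissue 2. Itgb6, an epithelial chain that activates latent TGFβ, was at 26.7 and 7.29 in early and late mThy14 TFCOs, 39.6 and 51.4 in mThy16, 68.6 and 396 in thyroid and 1121 and 317 in lung, with a log2 fold change of -4.50 against lung (SE 1.06, limma adjusted p = 0.029) and -2.65 against thyroid (limma adjusted p = 0.243). For Itgb6 the difference was -1.40 against thyroid tissue 1 and -3.91 against thyroid tissue 2, and with the library set as a term the fold change against lung was -1.98 (limma adjusted p = 0.578). Here too the shift comes only from the difference between the thyroid tissues. Itgb8, which also activates latent TGFβ, was at 153 to 249 in TFCOs, 169 and 375 in thyroid and 43.6 and 45.8 in lung. Its log2 fold change of 2.04 against lung narrowly missed the threshold (SE 0.61, limma adjusted p = 0.0511).

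The TFCO lines differed from each other in several chains, and with 1 animal per line these differences are a description. Per gene, 3 of the 30 members were at least 4-fold apart in the same direction at both passages, all higher in mThy16, against 4.18% of all genes tested. Among all genes tested, 615 were this far apart, 452 of them higher in mThy16 and 163 higher in mThy14. The direction is thus not particular to the members. Itgb4 was 17.7-fold higher in mThy16 at early and 42.3-fold higher at late passage. Lama3 was 6.39-fold and 8.48-fold higher, and Itga8 was 9.01-fold and 8.42-fold higher, the last on few reads. Lamb3 was also higher in mThy16, 2.31-fold at early and 8.72-fold at late passage. Itga1 was the reverse, 3.10-fold and 2.05-fold higher in mThy14. The median absolute log2 difference between the lines was 0.67 at early and 0.86 at late passage over the members, and 0.62 and 0.61 over all genes. In the list of 6 hemidesmosome genes, the basal keratin Krt5 was at 228 and 469 normalized counts in early and late mThy14 TFCOs and at 1485 and 1346 in mThy16. The others were also higher in mThy16 at both passages except Plec (2737 and 2071 against 1721 and 2443) and Cd151 (1379 and 1559 against 1576 and 1544), whose direction turned between passages. The 7 thyroid follicular markers summed to 170539 and 101578 in early and late mThy14 TFCOs but to 25609 and 20831 in mThy16. Of these sums Tg made up 126441 and 64646 in mThy14 and 12225 and 9532 in mThy16. The part of the make-up of the lines in these differences was not tested.

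**Figure D4:**
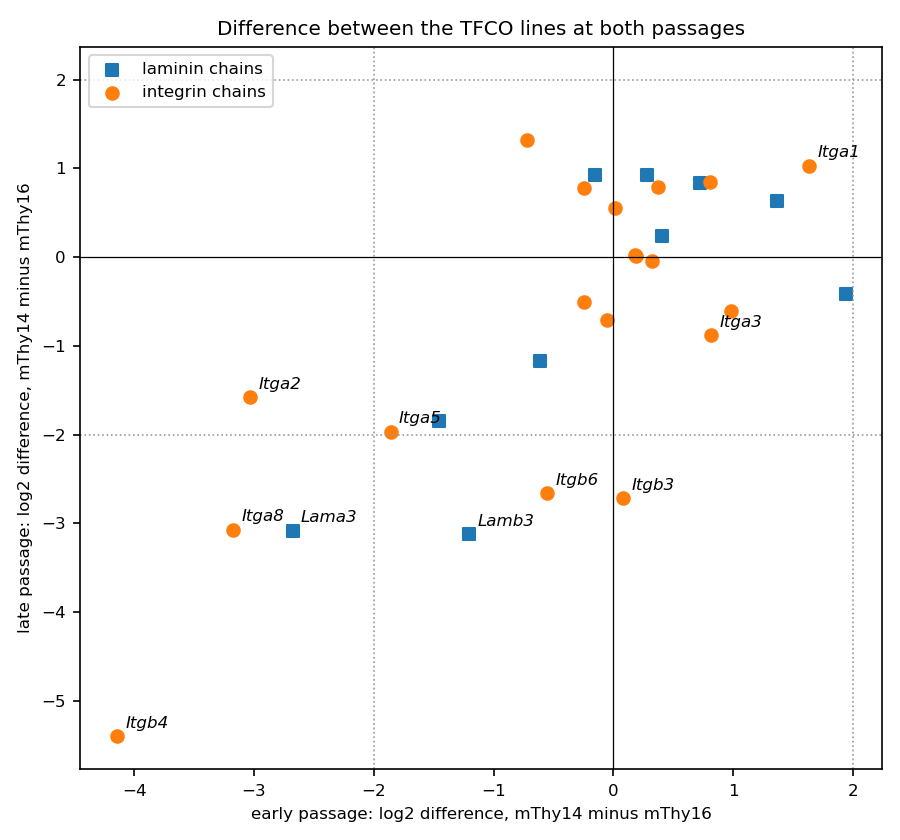
Log2 difference between the TFCO lines (mThy14 minus mThy16) at early passage (horizontal axis) and late passage (vertical axis), with 1 point per gene described, squares for laminins and circles for integrins, and dotted lines at a 4-fold difference. Itgb4, Itga8 and Lama3 lie beyond 4-fold at both passages, on the side where mThy16 is higher.

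Between late and early passage, 0 of the 30 members and 0% of all genes were called (limma, 2 libraries against 2, no term for the line). The tissues were in the same fit, so its standard errors and p-values also rest on the spread between the tissues. An unadjusted p under 0.05 was found for 1 member and for 166 of all genes, and edgeR, DESeq2 and voom on the recovered reads also called 0 genes. The 1 member was Lama1, which fell from 33.7 to 9.37 normalized counts in mThy14 and from 37.6 to 4.47 in mThy16 (log2 fold change -2.28, SE 0.94, limma adjusted p = 1). In mThy14 the passages differed more than in mThy16, with a median absolute log2 change over the members of 0.62 against 0.34, and 0.49 against 0.26 over all genes. Early mThy14 TFCOs had the fewest reads on genes of the 8 libraries, 9755081, and the part of depth in this was not tested. Itga3 was 3.26-fold lower and Lamb3 4.77-fold lower at late passage in mThy14, but 1.01-fold and 1.26-fold lower in mThy16. Itga2 was 4.10-fold higher at late passage in mThy14 and 1.50-fold higher in mThy16. Whether the lines differ in their change with passage was not tested, since each has 1 library per passage.

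The whole tissues also differed from each other. Between thyroid and lung, 3 members were called, all lower in thyroid (Itga8, Itga9 and Itgb2), and 0 higher, against 3.16% and 2.89% of all genes. Their log2 fold changes were -5.40 for Itga8 (SE 0.96, limma adjusted p = 0.0249), -3.56 for Itga9 (SE 0.52, limma adjusted p = 0.0148) and -3.35 for Itgb2 (SE 0.48, limma adjusted p = 0.0145). Against lung within the set of thyroid tissue 2 they were -5.20, -3.25 and -3.19. Itga8 was not called with the library set as a term (limma adjusted p = 0.0905). Itgb3 was 59.1-fold and Itga2 27.8-fold lower and Itga11 11.0-fold higher in thyroid without passing the test (limma adjusted p = 0.114, 0.0635 and 0.0537). The Itgb3 fold rests on thyroid tissue 1, which was at 0, and against thyroid tissue 2 alone the log2 difference from lung was -2.85. For Itga2 and Itga11 that difference was -5.83 and 3.36. Without either of the lung libraries 0 members were called, while without thyroid tissue 2 the count was 8.

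Other genes of the basement membrane and of adhesion were taken from lists. For comparison with these and the marker lists below, 0.599% of all genes were called higher and 3.05% lower than in thyroid. Against lung the shares were 9.83% and 13.5%, and the median log2 fold change over all genes was 0.05 in both comparisons. Of 20 basement membrane partners, 3 were called lower in TFCOs than in thyroid and 0 higher, with a median log2 fold change of -1.34. They were the laminin-binding nidogens Nid1 (-4.95, SE 0.68, limma adjusted p = 0.0133) and Nid2 (-5.19, SE 0.87, limma adjusted p = 0.0252) and the matrix protein Fras1 (-3.51, SE 0.64, limma adjusted p = 0.0348). Against lung, 10 were lower and 3 higher, with a median of -2.83. Of 5 other laminin receptors, the heparan sulfate proteoglycan Sdc1 was higher in TFCOs than in thyroid (2.36, SE 0.47, limma adjusted p = 0.0433) and lower than in lung (-1.96, SE 0.47, limma adjusted p = 0.03). Dystroglycan, Dag1, is in this list and also among the 20 basement membrane partners. It was at 23134 to 44393 normalized counts in TFCOs, 9852 and 4572 in thyroid and 4963 and 4653 in lung. Dag1 was called higher against lung (2.63, SE 0.56, limma adjusted p = 0.0221) but not against thyroid (2.15, limma adjusted p = 0.0973).

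Of 17 listed matrix ligands of integrins, 1 was called higher than in thyroid, Edil3, an Itgav ligand (6.01, SE 0.83, limma adjusted p = 0.0136), and 2 lower, the mesenchymal proteins Postn (-7.29, SE 0.80, limma adjusted p = 0.00739) and Fbn1 (-3.62, SE 0.44, limma adjusted p = 0.00963), with a median of -0.38. Against lung 7 were lower and 0 higher. Of 25 integrin adaptors and kinases, 2 were lower than in thyroid (Lims2 and Kank2) and 12 lower than in lung, with 0 higher in either and medians of -0.26 and -1.47. Of 7 integrin chains named by letters, 0 passed against thyroid and 3 leukocyte chains (Itgal, Itgam and Itgax) were lower than in lung, with medians of -0.36 and -1.78. Of 6 hemidesmosome genes, 0 passed against thyroid, while against lung Krt5 was higher (6.33, SE 1.26, limma adjusted p = 0.018) and the plakin Dst lower (-2.42, SE 0.57, limma adjusted p = 0.0295), with medians of 0.30 and -0.43.

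Markers of fibroblasts, endothelium and leukocytes were compared in the same way. All 6 fibroblast markers were called lower than in both tissues, with sums of 91.6 to 247 normalized counts in TFCOs, 25237 and 29602 in thyroid and 22583 and 38732 in lung, and with Lum at 0 in all TFCO libraries. Of 6 endothelial markers, 5 were called lower than in thyroid and 6 lower than in lung, with sums of 204 to 535 in TFCOs, 2841 and 6765 in thyroid and 28643 and 47953 in lung. Of 5 leukocyte markers, 2 were lower than in thyroid and 4 lower than in lung, with sums of 39.4 to 67.3, then 704 and 1125, then 4949 and 3250. Cd68, Cd3e and Cd79a overlapped thyroid and were not called there. The part of these cell types in the levels of the chains was not tested.

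The remaining marker lists were as follows. Of 6 mural and smooth muscle markers, 1 was lower in TFCOs than in thyroid and 3 lower than in lung. Every TFCO library lay below both thyroid tissues for 3 of them and above for 1, Cnn1 (log2 fold change 2.10, not called). Of 5 skeletal muscle markers, 4 were lower than in thyroid, where their sum was 47650 and 128162 normalized counts against 1903 to 2552 in TFCOs, carried there by Acta1, and against lung 3 were higher and 1 lower. Of 3 adipocyte markers, 1 was lower than in either tissue. Of 4 platelet markers, 0 passed against thyroid, with a median log2 fold change of 0.52, and 2 were lower than in lung, with sums of 1059.6 and 591 there. Of 3 Schwann cell markers, 0 passed against thyroid and 1 was higher than in lung. Of 5 epithelial markers, 0 passed against thyroid and 1, Epcam, was higher than in lung. Of 4 alveolar markers, 1, Sftpb, was higher in TFCOs than in thyroid and 3 were lower than in lung.

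Some members share sequence with other genes, to which reads could have been assigned. Itga10 shares 32.0% of its 50-base stretches with the overlapping gene Gm42957, and Itgb5 8.17%, Itga6 6.50%, Itga1 5.50% and Itgb2 1.16% with transcripts of other genes, so their levels carry this uncertainty. The other 25 members share at most 0.378%.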

How the data were processed

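RNA from 8 mouse libraries was sequenced by the authors, who deposited normalized counts per gene, a signal made by dividing read counts by 1 size factor per library. BWA 0.6.2-r126 is named in the submitters' processing notes, with builds mm10 and hg38, and DESeq2 in the study's methods, while the annotation is not given in the sources used here. Reads recovered by multiplying back were whole within 0.01 for 100% of values.

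A gene was tested if 2 or more libraries held at least 10 normalized counts, with limma 3.58.1 (R 4.3.3) on log2(normalized counts + 1), with a trend and Benjamini-Hochberg adjustment. Fold changes on this scale understate those of low genes. Early and late passages of a line were averaged. The lines, thyroid tissues and lung tissues then entered the same fit, which gave all comparisons with or between tissues. All 8 libraries entered the comparison of passages. Each line came from the same animal at both passages, and line differences at early and late passage correlated across genes (r = 0.477). Blocking on the line changed no call. An exact permutation test of 2 against 2 cannot go below a two-sided p of 0.333.

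Members were all genes with the stated symbols, and were named, except for 1 item that is not reported here, with the value of every library where called or at least 10-fold apart; up to 4 genes were named per list. Members and lists were chosen with earlier results of these data known. Gene models came from GENCODE M21, in which 15883 symbols matched. Alternatives included edgeR 4.0.16, DESeq2 1.42.0 and voom on recovered reads, and the statistics were tested on simulated data.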

Additional observations from a re-analysis of the deposited data

How the results depend on the processing

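The 6 members called between TFCOs and thyroid tissue became 2 with voom, 3 with late TFCOs only and 2 with the library set as a term, and 1 to 9 with 1 library left out. The 13 called against lung became 2 with the library set as a term and 3 to 15 with 1 library left out. The 3 called between thyroid and lung became 5 with quantile normalization, 5 without a trend, 11 with DESeq2 and 0 to 8 with 1 library left out. Over all genes, 536 calls between TFCOs and thyroid became 220 with voom, 1949 with DESeq2, 1322 with the 4 TFCO libraries as separate samples, 178 with the library set as a term and 143 to 4026 with 1 library left out. The 3435 against lung became 2144 with edgeR, 5695 with DESeq2, 6625 with separate TFCO libraries, 174 with the library set as a term and 296 to 6981 with 1 library left out. The 889 between thyroid and lung became 586 with voom, 583 with edgeR, 2485 with DESeq2 and 59 to 4288 with 1 library left out. Between passages, leaving out 1 library gave 0 to 2 genes in place of 0. The cause of these changes was not tested. Against lung, the library set term rests only on the difference between the thyroid tissues.

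Of 456 alternative values for the called members, 359 stayed past the threshold in the same direction, 97 fell short of it and 0 reversed. These alternatives, also those counted per gene above, reuse the same libraries and are not independent of each other. Some differ from the main fit only in a setting such as the constant added before the log. Another treats the 4 TFCO libraries as separate samples, although passages of a line are not independent. Among members that were not called, Itgb3 against thyroid ran from -3.80 to 2.28 on the log2 scale. The split of calls against lung, 1445 higher and 1990 lower, became 1141 and 2093 with equal library totals, which shifted library medians by -0.129 to 0.137 (log2), and 1597 and 1630 with quantile normalization. With the tissue number as a replicate block, 3 members and 756 genes were called between thyroid and lung, and these numbers do not pair the tissues (r = -0.0726). With the TFCO line as a replicate block, 0 members and 0 genes were called between passages. Lama1, Lama2, Itga8, Itga9, Itgb3, Itgb6 and Itgb7 each have at least 1 TFCO library with 10 reads or fewer, which limits the precision of their fold changes.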
